A study of Mus musculus with 10 samples.

Results

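The integrin chains and laminin chains of the mouse heart were examined in hearts with SPOP overexpression. The set holds each protein-coding gene of the deposited table whose symbol follows the pattern of an integrin alpha or beta chain or of a laminin alpha, beta or gamma chain; the symbols alone define it. It has 41 members of 24888 genes, with 27 integrin chains, 11 laminin chains and 3 genes that carry such a symbol but encode no chain (Itgb1bp1, Itgb1bp2 and Itgb3bp). Poly(A) RNA of heart tissue was sequenced from 5 mice that overexpress SPOP in the heart (SPOP_CKI) and from 5 controls that carry the Cre transgene only (Cre_control, titled WT). Mice of both groups carry α-MHC-Cre (Myh6Cre), are described as male, 8 to 10 weeks old, and were studied under sham conditions. The α-MHC promoter drives Cre in cardiomyocytes, whereas the RNA came from every cell type of the heart. No hearts without the Cre transgene were analysed here, so an effect of Cre itself was not tested. The SPOP protein recruits substrates to a cullin ubiquitin ligase, and the study's title places the comparison in pathological hypertrophy and heart failure.

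Laminins are cross-shaped heterotrimers of an alpha, a beta and a gamma chain and form the inner sheet of the basement membrane that wraps each cardiomyocyte, endothelial cell and smooth muscle cell. Integrins are transmembrane heterodimers of an alpha and a beta chain that bind laminins, collagens, fibronectin and other ligands outside the cell and couple them through talin, kindlin and integrin-linked kinase to the actin cytoskeleton. The alpha chain largely sets the ligand, and adult cardiomyocytes rely mainly on a laminin receptor made of the alpha chain Itga7 with the beta chain Itgb1. In the adult muscle basement membrane Lama2 is the main alpha chain, while Lama4 and Lama5 are chains of vascular basement membranes.

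Values are reads per gene divided by the authors' size factor of each library (scaled reads), listed for libraries 1, 2, 3, 4 and 5 of a group in that order, and means are given ± SD over the 5 libraries. Depth was 15316293 to 17114869 reads. The overexpressed gene, Spop, ranged from 25308 to 40631 in SPOP_CKI and from 3078 to 3726 in controls. In library SPOP_CKI 3, 13167 genes had a read, against 18531 to 20806 in the other 9 libraries. Xist reads were present in 3 libraries (SPOP_CKI 1, SPOP_CKI 3 and Cre_control 5, 4491 to 6578 scaled reads), in which Ddx3y, Kdm5d, Uty and Eif2s3y of the Y chromosome were at 0, although each mouse is labelled male. Libraries SPOP_CKI 2 and SPOP_CKI 4 had the highest summed levels of macrophage and fibroblast markers. The summed level of 12 cardiomyocyte markers was 387340.2 to 707458 in SPOP_CKI and 669162 to 878763 in controls (4 of 12 lower, 1 higher). For 12 endothelial markers it was 24092 to 32218 and 33628 to 38478 (7 of 12 lower, none higher), and for 12 fibroblast markers 63774 to 159182 and 65236 to 83265 (1 higher, 1 lower). Log2 differences were negative for 11 of 12 cardiomyocyte, 9 of 12 endothelial and 3 of 12 fibroblast markers (medians −0.69, −0.61 and 0.32). Over all genes tested the median was −0.11, with 10.0% higher and 12.3% lower. In bulk tissue, fewer cells of a type and less RNA per cell cannot be told apart, and the part of these markers in the results was not tested.

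Differences between groups were tested with limma on log2(scaled reads + 1), with Benjamini-Hochberg adjustment over 14212 genes at an adjusted p under 0.05. Of the 41 members, 37 had at least 10 scaled reads in at least 5 libraries and were tested, and 10 were higher and 2 lower in SPOP_CKI. Among all genes tested, 10.0% were higher and 12.3% lower. Those that rose include the laminin chain Lama4 and the integrin chains Itga6, Itga9, Itgav, Itgam, Itgb1, Itgb3, Itgb6 and Itgb8. Those that fell were the laminin chain Lamb3 and Itgb1bp2, and no integrin chain fell. Of the 37 tested members, 9 lay wholly higher in SPOP_CKI and 2 wholly lower, where 9.01% of all genes tested lay wholly higher and 12.3% wholly lower. Each of these members had also passed the test. The median log2 difference was 0.33 over the 37 members, 0.59 over 24 integrin chains and −0.0044 over 10 laminin chains, beside −0.11 over all genes tested. Under quantile normalization the median of all genes moved to 0.03, and all 12 members kept their calls. The count of members that rose was 14 without SPOP_CKI 3, 18 without the 3 libraries with Xist reads and 5 without SPOP_CKI 2 and 4, and the count that fell was 2 in each of these. Over all genes tested, 1421 rose in the main test, and 1944, 1953 and 1048 in these alternatives, in the same order. Those that fell were 1747 in the main test, and 2456, 2410 and 1264 in these alternatives. The libraries with Xist reads include SPOP_CKI 1 and 3, so without them the group is SPOP_CKI 2, 4 and 5.

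**Figure D1:**
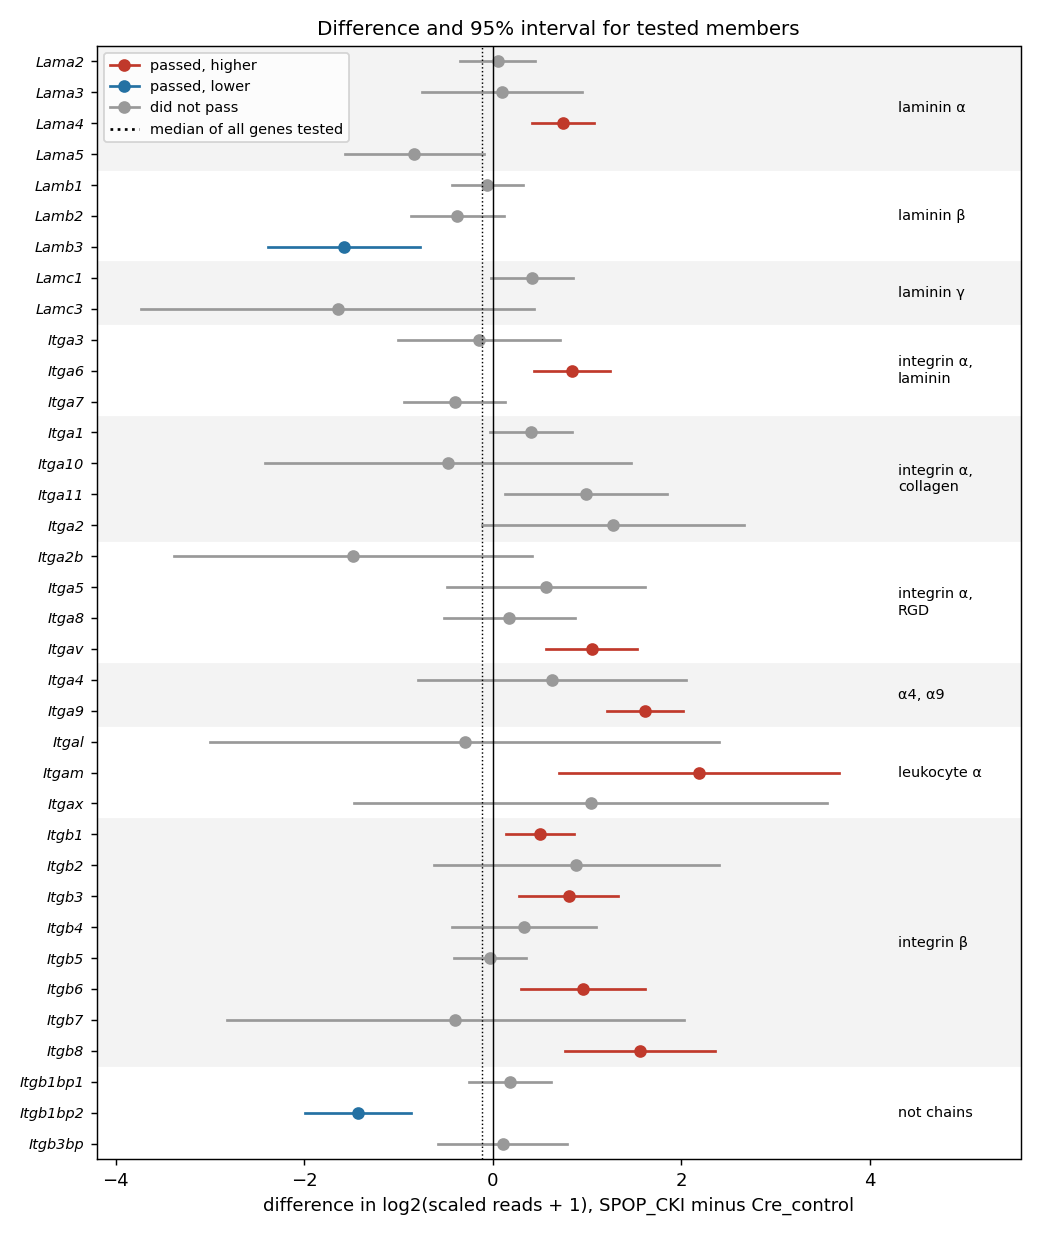
Difference in log2(scaled reads + 1) between SPOP_CKI and Cre_control for tested members, by role. Points are estimates, bars are 95% intervals of limma before any adjustment, red and blue mark members that passed the test (higher and lower), and the dotted line is the median of all genes tested (−0.11).

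For 7 of the 12 members that changed, RefSeq gives a promoter on the GRCm38.p6 build, and in 3 of them (Itgav, Itgb1 and Itgam) that window ends directly before the gene's start in the deposited table. These 3 are shown, as the 250 bases before the start, since they belong to chains that rose and are expressed in different cells: Itgb1 in nearly all, Itgav in many, and Itgam in myeloid cells. The strand is plus in each and the sequence is written 5′ to 3′. Capitals mark matches, on either strand, to 4 short motifs: TGANTCA (the AP-1 site), GGGCGG (the GC box bound by Sp factors), CATTCC (the MCAT element bound by TEAD factors) and GAGGAA (the core of the PU box bound by PU.1).
Itgav, chr2:83724147-83724396: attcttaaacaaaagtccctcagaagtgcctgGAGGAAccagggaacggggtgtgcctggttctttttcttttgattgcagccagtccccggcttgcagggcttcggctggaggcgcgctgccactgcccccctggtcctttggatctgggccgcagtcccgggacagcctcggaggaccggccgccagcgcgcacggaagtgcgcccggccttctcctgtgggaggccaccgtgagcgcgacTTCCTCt
Itgb1, chr8:128685404-128685653: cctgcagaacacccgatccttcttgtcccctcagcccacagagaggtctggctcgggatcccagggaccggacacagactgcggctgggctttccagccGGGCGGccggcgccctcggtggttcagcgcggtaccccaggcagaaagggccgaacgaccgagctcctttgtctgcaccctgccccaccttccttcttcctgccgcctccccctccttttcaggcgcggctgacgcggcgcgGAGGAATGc
Itgam, chr7:128062390-128062639: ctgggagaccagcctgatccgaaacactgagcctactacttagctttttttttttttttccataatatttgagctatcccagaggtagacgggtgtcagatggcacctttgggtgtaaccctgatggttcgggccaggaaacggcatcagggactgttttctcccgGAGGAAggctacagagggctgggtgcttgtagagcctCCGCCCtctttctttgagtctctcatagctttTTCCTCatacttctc
The Itgav window held GAGGAA at 2 places and no other motif. The Itgb1 window held GGGCGG at 1 place, and GAGGAA and CATTCC at 1 place each, which overlap at its 3′ end on opposite strands. In the Itgam window GGGCGG stood at 1 place and GAGGAA at 2. Among 32851 RefSeq windows of this length, 6.75% hold TGANTCA, 32.7% GGGCGG, 12.6% CATTCC and 23.3% GAGGAA.

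Levels were compared between genes per kilobase of gene length as given in the deposited table. In control hearts Itgb1 had the highest level of all members, at 2342 ± 337 scaled reads per kilobase. Itgb1bp2 came next at 1291 ± 220.4, followed by Itgb5 at 1161 ± 172 and Lamb2 at 951 ± 34.3. Neighbours in this order whose library ranges did not overlap were Itgb1 and Itgb1bp2, Lamb2 and Lamc1, Lamc1 and Itga7, Itga7 and Lamb1, Lamb1 and Itga5, and Itga9 and Itgav. The most abundant integrin alpha chain in controls was the cardiomyocyte laminin receptor Itga7 at 309.7 ± 42.5 scaled reads per kilobase, and Itga5 (232 ± 8.21) and Itga6 (157 ± 30.7) followed. In SPOP_CKI the means put Itga5 (443 ± 323) and Itga6 (279.9 ± 50.6) above Itga7 (246 ± 87.2), with library ranges that overlap. Itgb1 was again highest in SPOP_CKI at 3297 ± 402, and Itgb1bp2 stood at 507 ± 219. Among the first 20 members in SPOP_CKI, Itgb1 and Itgb5 were the only neighbours whose ranges did not overlap.

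**Figure D2:**
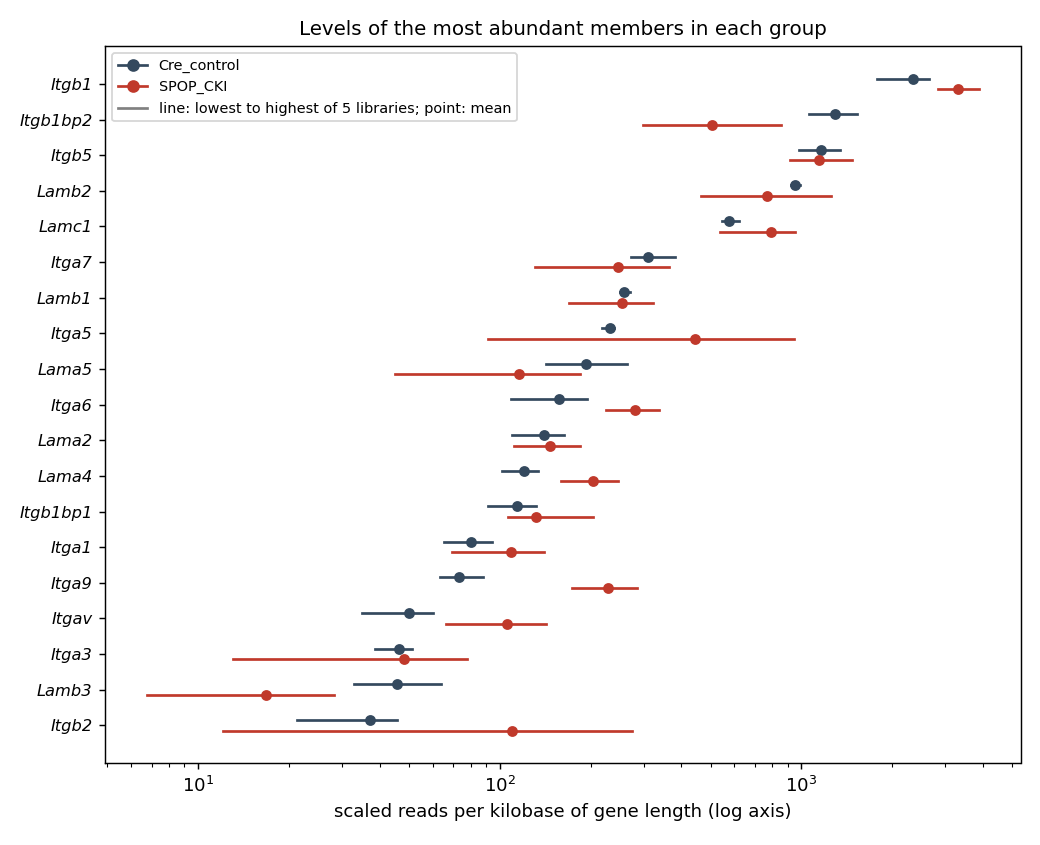
Scaled reads per kilobase of gene length (log axis) for members with high means in Cre_control. Points are means and lines run from the lowest to the highest of 5 libraries, with Itgb1 on top at 2342 in controls and 3297 in SPOP_CKI, and the lines of Itgb1, Itgb1bp2, Itga6, Lama4, Itga9, Itgav and Lamb3 lying apart between the groups.

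Among the 4 tested laminin alpha chains, Lama4 rose and the others did not pass the test. Lama4 (ENSMUSG00000019846, mm10 chromosome 10, 38965515 to 39110188, plus strand), a chain of vascular and muscle basement membranes, was at 1929, 2467, 2309, 2602 and 2969.8 scaled reads in SPOP_CKI and 1414, 1475, 1539.6, 1225 and 1617 in controls. Each SPOP_CKI library exceeded each control. This is an increase of 1.68-fold (log2 difference 0.75, SE 0.15, adjusted p = 0.00613). Lama2, the main alpha chain of the muscle basement membrane, was at 1815, 2152, 2126, 3021 and 2894 in SPOP_CKI and 2242, 1787, 2666, 2206 and 2585 in controls. The groups overlapped over most of their range (log2 difference 0.051, 95% interval −0.35 to 0.45, adjusted p = 0.856). Lama5, the second vascular alpha chain, was at 1391, 1473, 513, 1098 and 2105 in SPOP_CKI and 1661, 2092, 2580.3, 3003 and 1618 in controls. Library SPOP_CKI 3 was lowest and SPOP_CKI 5 reached into the control range (log2 difference −0.83, 95% interval −1.57 to −0.097, adjusted p = 0.0955). Without SPOP_CKI 5 Lama5 passed at −1.04 (adjusted p = 0.0415). It passed in 2 of 20 alternatives, with adjusted p up to 0.206. Lama3, an epithelial chain, averaged 67.5 ± 33.3 and 59.6 ± 19.7, and Lama1, an embryonic chain, was too low to be tested.

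Of the 3 laminin beta chains Lamb3, a chain of the epithelial laminin, fell, and the more abundant Lamb1 and Lamb2 did not pass the test. Lamb3 (ENSMUSG00000026639, mm10 chromosome 1, 193207699 to 193343878, plus strand) was at 186, 44.6, 87.6, 76.7 and 161 in SPOP_CKI and 421, 321, 218, 314 and 238 in controls. No SPOP_CKI library reached the lowest control, and SPOP_CKI 2 was lowest. The decrease was 2.98-fold (log2 difference −1.58, SE 0.37, adjusted p = 0.0122). The span of Lamb3 overlaps G0s2 and Hsd11b1 on the opposite strand, with no exon base in common in GENCODE M21. Summed mesothelial and epicardial markers (7 genes) were 69.2 to 475 in SPOP_CKI and 137 to 396 in controls, and their part in the Lamb3 level was not tested. Lamb1 was at 2393, 2429, 1681, 2896 and 3184 in SPOP_CKI and 2669.7, 2564, 2587, 2489 and 2510.1 in controls. The controls lay close together and the SPOP_CKI libraries spread on both sides of them (adjusted p = 0.82). Lamb2, the most abundant laminin beta chain in controls, was at 4319, 4314, 2831, 4370.1 and 7635 in SPOP_CKI and 5989, 5608, 5675, 6026 and 5609 in controls. Of the 5 SPOP_CKI libraries 4 lay under each control and SPOP_CKI 5 above each control (log2 difference −0.37, 95% interval −0.86 to 0.11, adjusted p = 0.243). Without SPOP_CKI 5 Lamb2 passed at −0.57 (adjusted p = 0.0296), the only 1 of 20 alternatives in which it passed. Across these the log2 difference lay between −0.57 and −0.15, with adjusted p up to 0.64.

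Among the gamma chains, Lamc1, which is part of nearly all laminins, was at 4780.2, 7888, 4454, 7740.1 and 7879 in SPOP_CKI and 4504, 4638, 5118, 4534 and 4985 in controls. Libraries SPOP_CKI 2, 4 and 5 exceeded each control, while 1 and 3 did not (log2 difference 0.42, 95% interval −0.017 to 0.85, adjusted p = 0.149). Without SPOP_CKI 3 Lamc1 passed at 0.54 (adjusted p = 0.0379), and without SPOP_CKI 2 and 4 the difference was 0.22 (adjusted p = 0.45). Lamc1 passed in 3 of 20 alternatives. Lamc3 averaged 8.45 ± 9.51 and 14.7 ± 5.20 and did not pass.

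Of the integrin alpha chains that bind laminin, Itga6 rose, and Itga7 and Itga3 did not pass. Itga6 (ENSMUSG00000027111, mm10 chromosome 2, 71745616 to 71858416, plus strand), a laminin receptor of endothelial and other cells, was at 2028, 2091, 3052, 2865 and 2597 in SPOP_CKI and 1393, 1754, 1460.2, 985 and 1482 in controls. The groups did not overlap, and the increase was 1.79-fold (log2 difference 0.84, SE 0.19, adjusted p = 0.00944). Itga7, the laminin receptor of adult cardiomyocytes, was at 2180.0, 2939.9, 1059.7, 1595 and 2162 in SPOP_CKI and 3082, 2451, 2198, 2497 and 2301 in controls. SPOP_CKI 3 and 4 were lowest and SPOP_CKI 2 was second only to the highest control (log2 difference −0.41, 95% interval −0.94 to 0.13, adjusted p = 0.247). Itga3, an alpha chain of epithelial laminin receptors, averaged 275 ± 135 and 264 ± 29.2. In the same libraries the summed endothelial markers were lower in each SPOP_CKI heart than in each control.

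Among the chains that recognise the RGD sequence of fibronectin and vitronectin, Itgav rose and Itga5, Itga8 and Itga2b did not pass. Itgav (ENSMUSG00000027087, mm10 chromosome 2, 83724397 to 83806916, plus strand), which pairs with Itgb1, Itgb3, Itgb5, Itgb6 and Itgb8 and in several of these pairs binds latent TGF-beta, was at 945, 1297, 1188, 1524 and 709.7 in SPOP_CKI and 537, 539, 644, 376 and 585 in controls. SPOP_CKI 5 was lowest of its group and still above each control. The increase was 2.07-fold (log2 difference 1.05, SE 0.22, adjusted p = 0.00765). Itga5, the fibronectin receptor of embryonic and remodelling tissue, was at 1575, 4675, 452, 2626 and 1588 in SPOP_CKI and 1144, 1148, 1172, 1078 and 1182 in controls. The controls lay close together, SPOP_CKI 2 was highest and SPOP_CKI 3 was below each control (log2 difference 0.56, 95% interval −0.49 to 1.61, adjusted p = 0.409). Without SPOP_CKI 3 the Itga5 difference was 1.04 and passed (adjusted p = 0.0133), and without SPOP_CKI 2 and 4 it was −0.14. Itga8 averaged 139.7 ± 59.3 and 119 ± 34.7, and the platelet chain Itga2b 19.0 ± 13.9 and 33.9 ± 7.32.

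Itga9 had the lowest adjusted p among the members. Itga9 (ENSMUSG00000039115, mm10 chromosome 9, 118606690 to 118901003, plus strand), which pairs with Itgb1 and binds tenascin-C, osteopontin and Vcam1, was at 1349, 2191, 1333, 2197 and 1708 in SPOP_CKI and 599.5, 678, 485, 528 and 527 in controls. The lowest SPOP_CKI library lay well above the highest control, and SPOP_CKI 2 and 4 were highest. The increase was 3.06-fold (log2 difference 1.61, 95% interval 1.21 to 2.01, adjusted p = 0.000452). The related chain Itga4, a receptor of leukocytes for Vcam1, averaged 167 ± 129 and 78.8 ± 31.9 (adjusted p = 0.505). Itga4 passed in 3 of 20 alternatives, and its log2 difference was −0.25 without SPOP_CKI 2 and 4. Of the 4 chains that bind collagen none passed. Itga1, the main collagen receptor of smooth muscle and fibroblasts, averaged 2019 ± 519 and 1490.1 ± 208 (adjusted p = 0.157). Itga11, the collagen receptor of activated fibroblasts, averaged 137 ± 76.3 and 59.8 ± 8.80 (log2 difference 0.99, 95% interval 0.13 to 1.85, adjusted p = 0.0904). It passed with edgeR, with DESeq2 and in the authors' deposited table, for which the submitters' notes name DESeq2 as well. Of 20 alternatives Itga11 passed in 6, with log2 differences down to 0.43 and adjusted p up to 0.377. Itga2 (25.6 ± 16.4 and 8.65 ± 3.48) and Itga10 (17.1 ± 10.5 and 16.6 ± 7.06) were near the filter, and Itga2 reached 10 scaled reads in 4 SPOP_CKI and 1 control library.

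**Figure D3:**
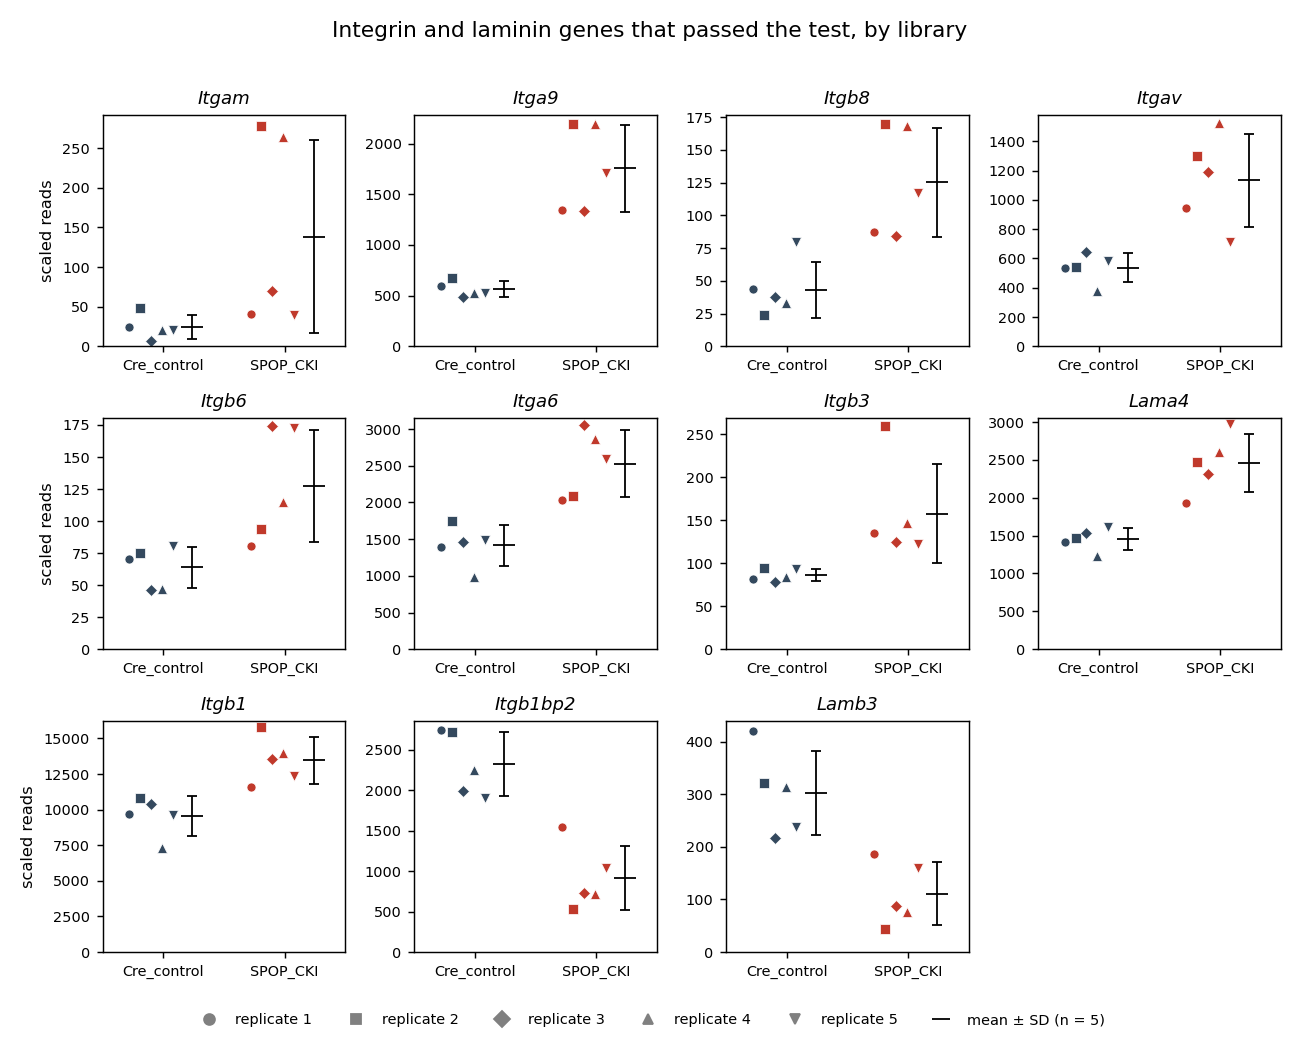
Scaled reads of members that passed the test, by library. Symbols mark libraries 1 to 5, and the bar is the mean ± SD of 5 libraries. Itgam alone overlaps between the groups, and its highest values, like those of Itga9 and Itgb8, are in SPOP_CKI 2 and 4.

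Of 8 tested integrin beta chains, Itgb1, Itgb3, Itgb6 and Itgb8 rose and none fell, where 10.0% of all genes tested rose and 12.3% fell. Itgb1 (ENSMUSG00000025809, mm10 chromosome 8, 128685654 to 128733200, plus strand), the partner of most alpha chains, was at 11562, 15825, 13543, 14009 and 12345 in SPOP_CKI and 9672, 10827, 10422, 7275 and 9594 in controls. The groups did not overlap, although SPOP_CKI 1 was close to the highest control (1.41-fold, log2 difference 0.50, SE 0.16, adjusted p = 0.0489). This is the call closest to the threshold: it was lost without any 1 control library, without SPOP_CKI 2, 3 or 4, and in 4 other alternatives, with adjusted p up to 0.136. Itgb8 (ENSMUSG00000025321, mm10 chromosome 12, 119158022 to 119238802, minus strand), which with Itgav binds latent TGF-beta, was at 87.6, 169, 84.1, 168 and 117 in SPOP_CKI and 43.5, 23.6, 37.4, 32.7 and 79.3 in controls. Its lowest SPOP_CKI value stood just above Cre_control 5, the highest control (2.95-fold, log2 difference 1.56, SE 0.36, adjusted p = 0.0122). That call was lost without SPOP_CKI 2 and 4 together (log2 difference 1.24, adjusted p = 0.0693).

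Itgb3 (ENSMUSG00000020689, mm10 chromosome 11, 104608000 to 104670476, plus strand), the beta chain of the vitronectin and platelet receptors, was at 135, 260.2, 124, 147 and 123 in SPOP_CKI and 81.7, 94.4, 78.2, 83.6 and 93.2 in controls. The groups did not overlap, with SPOP_CKI 2 far above the others (1.75-fold, log2 difference 0.81, adjusted p = 0.0338). Without SPOP_CKI 2 the difference was 0.61 (adjusted p = 0.055), and the call was also lost without SPOP_CKI 4 or any 1 control library. The 7 summed platelet markers were 211 to 717 in SPOP_CKI and 252.1 to 312 in controls, and their part in the Itgb3 level was not tested. Itgb6 (ENSMUSG00000026971, mm10 chromosome 2, 60598292 to 60722643, minus strand), an epithelial partner of Itgav, was at 80.4, 94.2, 174, 115 and 172 in SPOP_CKI and 70.0, 75.1, 46.5, 47.1 and 80.4 in controls. The lowest SPOP_CKI and the highest control library had the same rounded value, so the groups only just failed to overlap (1.94-fold, log2 difference 0.95, adjusted p = 0.0417). The call for Itgb6 was lost without SPOP_CKI 4 or 5 or any 1 control library. Itgb5, the second most abundant beta chain and another partner of Itgav, was at 3264, 4271, 3352, 5233 and 4229 in SPOP_CKI and 4182, 3489.9, 4657, 4781 and 3510.0 in controls. The groups shared their range, and the 95% interval of the log2 difference was −0.41 to 0.36 (adjusted p = 0.919). Itgb4, which pairs with Itga6 in epithelia, averaged 69.8 ± 12.6 and 59.1 ± 26.0 and did not pass.

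Of the 3 tested leukocyte alpha chains Itgam rose, and their levels varied widely within SPOP_CKI. Itgam (ENSMUSG00000030786, mm10 chromosome 7, 128062640 to 128118491, plus strand), the alpha chain of the myeloid receptor CD11b/CD18, was at 40.7, 278, 70.1, 264 and 39.0 in SPOP_CKI and 24.4, 48.3, 6.80, 20.2 and 20.4 in controls. SPOP_CKI 2 and 4 were far above the rest, while SPOP_CKI 1 and 5 were below Cre_control 2. The increase was 4.56-fold (log2 difference 2.19, 95% interval 0.70 to 3.68, adjusted p = 0.0391). Without SPOP_CKI 2 and 4 the log2 difference was 1.20 and did not pass (adjusted p = 0.184), and the call was also lost without either of them or without control library 1, 3, 4 or 5. In GENCODE M21, 68.7% of the exon bases of Itgam are shared with the predicted gene Gm49368, so its count is uncertain.

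Itgb2, which encodes the beta chain CD18 that pairs with Itgam, Itgal and Itgax, was at 138, 838, 36.8, 494 and 164 in SPOP_CKI and 136, 139, 64.6, 118 and 109 in controls. It too was highest in SPOP_CKI 2 and 4, and SPOP_CKI 3 was below each control (log2 difference 0.89, 95% interval −0.63 to 2.40, adjusted p = 0.366). Without SPOP_CKI 3 Itgb2 passed at 1.50 (adjusted p = 0.0406), and without SPOP_CKI 2 and 4 the difference was −0.21. The lymphocyte chain Itgal averaged 108 ± 125 and 48.4 ± 13.4, the dendritic cell and macrophage chain Itgax 49.4 ± 61.5 and 8.62 ± 3.09, and the lymphocyte beta chain Itgb7 52.4 ± 63.0 and 28.5 ± 9.14. All 3 were at 0 in SPOP_CKI 3 and highest in SPOP_CKI 2. None of the 3 passed in the main test, and the log2 difference of Itgax was 1.04. Itgax passed in 5 of 20 alternatives, and its log2 difference was −0.61 without SPOP_CKI 2 and 4. On the log2 scale the differences of Itgal and Itgb7 were −0.30 and −0.40, opposite in sign to those of their means, and both turned positive with edgeR, DESeq2, quantile normalization or array weights and without SPOP_CKI 3 or the libraries with Xist reads. Itgal passed, as higher, without the libraries with Xist reads (limma adjusted p = 0.036). Itgad, Itgae and Itgb2l were too low to be tested.

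Leukocyte markers were read in the same libraries. The summed level of 12 macrophage and monocyte markers was 6631, 23494, 9080.1, 29945 and 6249 in SPOP_CKI and 6310.3 to 11145 in controls. Of these 12 markers 2 rose (Mrc1 and Adgre1) and none fell, where 10.0% of all genes tested rose and 12.3% fell. Fcgr1 was at 0 in SPOP_CKI 3. Summed neutrophil markers (8 genes) were 172 to 744 and 62.4 to 181, and the 3 that could be tested, S100a8, S100a9 and Csf3r, rose. In each of these 3 the library ranges of the groups overlapped. For T and NK cells the 10 summed markers were 0 to 140.3 and 26.1 to 134, with all 10 at 0 in SPOP_CKI 3. Their part in the levels of Itgam, Itgb2, Itgal, Itgax, Itga4 and Itgb7 was not tested.

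**Figure D4:**
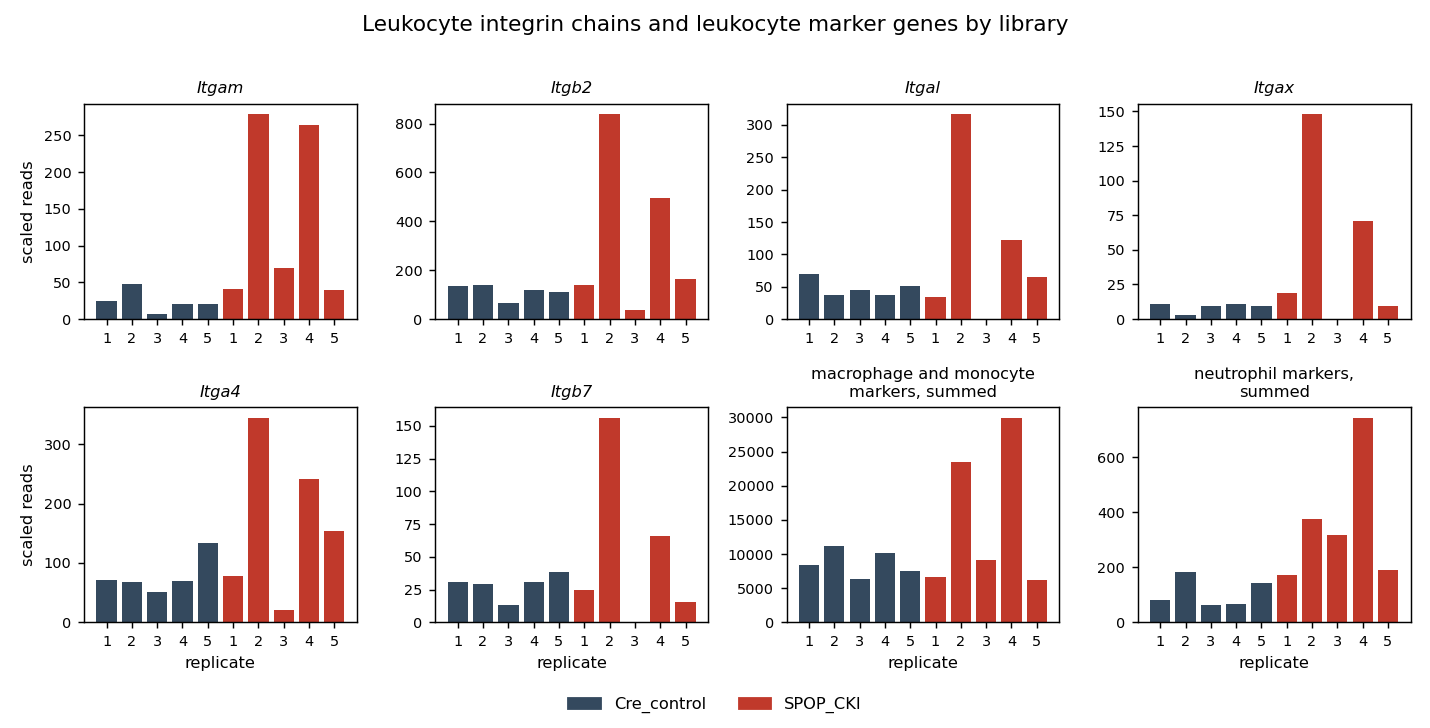
Scaled reads of 6 leukocyte integrin chains and the summed scaled reads of macrophage and monocyte markers and of neutrophil markers, 1 bar per library. SPOP_CKI 2 and 4 have the 2 highest bars in every panel, and Itgal, Itgax and Itgb7 have no bar in SPOP_CKI 3.

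Of the 3 members that are no chains, Itgb1bp2 fell. Itgb1bp2 (ENSMUSG00000031312, mm10 chromosome X, 101449088 to 101453541, plus strand) encodes melusin, a muscle protein that binds the cytoplasmic tail of the Itgb1 chain and is known for a protective role in the pressure-loaded heart. It was at 1541, 535, 734, 718 and 1033 in SPOP_CKI and 2748, 2721, 1989, 2249 and 1908 in controls. No SPOP_CKI library reached the lowest control, and SPOP_CKI 2 was lowest. The decrease was 2.69-fold (log2 difference −1.43, 95% interval −1.99 to −0.86, adjusted p = 0.00384). Of the cardiomyocyte markers, 4 of 12 fell (Mb, Myl3, Tnni3 and Myh6) and Actc1 rose, where 12.3% of all genes tested fell and 10.0% rose. The log2 difference was negative for 11 of the 12 markers (median −0.69). The part of these marker levels in the fall of Itgb1bp2 was not tested. Itgb1bp1, an inhibitor of integrin activation, averaged 467 ± 144 and 402 ± 53.8, and Itgb3bp, a centromere protein, 81.8 ± 39.3 and 71.4 ± 11.4. Neither passed.

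A ratio of 2 chains within a library does not depend on how the library was scaled, and 4 such ratios were taken. Those of Itga5 and Itga6 to Itga7 and of Lama4 to Lama2 set a chain of embryonic, vascular or remodelling tissue over one typical of adult cardiomyocytes or muscle. The ratio of Lamb1 to Lamb2 sets the 2 abundant laminin beta chains against each other. The 4 ratios were compared by an exact two-sided permutation test of the group labels, with p adjusted over the 4. They were chosen with earlier results of these data known, and Lama4 and Itga6 had passed the gene test in the same libraries. Their p-values are therefore no separate support for those differences, and the adjustment does not cover the choice of pairs. The log2 ratio of Lama4 to Lama2 was 0.088, 0.20, 0.12, −0.22 and 0.037 in SPOP_CKI and −0.66, −0.28, −0.79, −0.85 and −0.68 in controls. Each SPOP_CKI library exceeded each control, by 0.70 on average (exact permutation p = 0.0079, adjusted p = 0.032). That p is the smallest which 5 libraries against 5 allow.

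The log2 ratio of Itga6 to Itga7 averaged 0.41 ± 0.80 in SPOP_CKI and −0.84 ± 0.38 in controls, a difference of 1.25 (exact permutation p = 0.016, adjusted p = 0.032). SPOP_CKI 2 lay just below the highest control and the other 4 above it. For Itga5 to Itga7 the means were −0.15 ± 0.83 and −1.12 ± 0.21, a difference of 0.97 (exact permutation p = 0.040, adjusted p = 0.040). There SPOP_CKI 3 lay within the controls and the other 4 above them. Lamb1 to Lamb2 averaged −0.86 ± 0.25 and −1.17 ± 0.060, a difference of 0.31 (exact permutation p = 0.040, adjusted p = 0.040), with SPOP_CKI 5 within the controls and the other 4 above them. The call for Itga5 to Itga7 was lost without SPOP_CKI 2 or 4 or any 1 control library, that for Lamb1 to Lamb2 without SPOP_CKI 1, 2, 3 or 4, and both of the other ratios passed whichever library was left out (unadjusted exact p). Neither Itga7 nor Lama2, Lamb1 or Lamb2 passed the gene test.

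**Figure D5:**
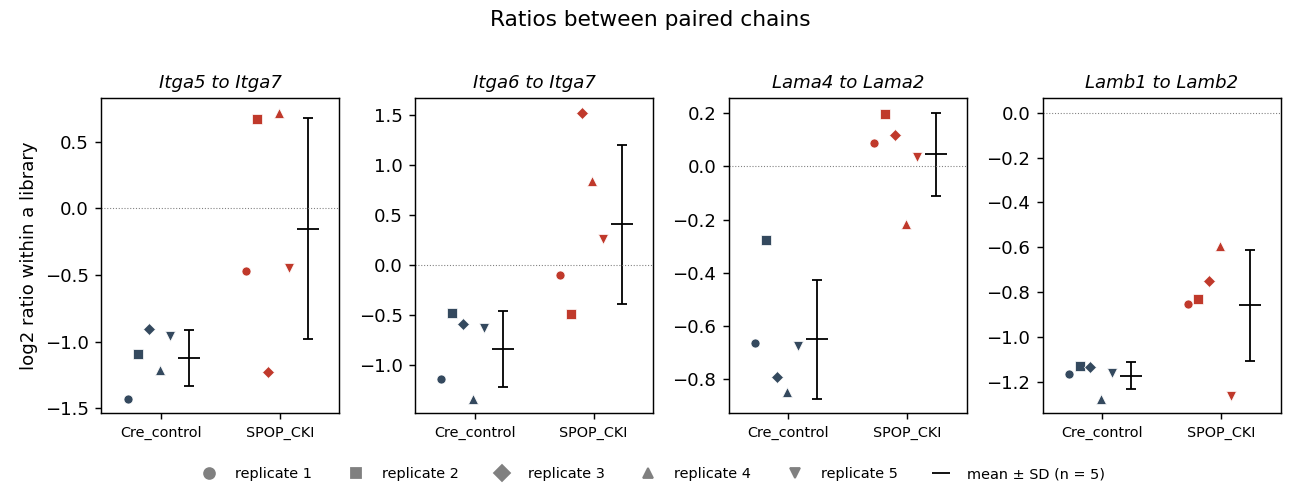
Log2 ratio of 2 chains within each library, for 4 pairs. Symbols mark libraries 1 to 5 and bars are the mean ± SD of 5 libraries. Lama4 to Lama2 is the pair whose groups do not overlap, and a single SPOP_CKI library lies among the controls in each of the other 3.

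Of 14 basement membrane partners of the laminins, all tested, 1 rose and 1 fell (median log2 difference 0.13), where 10.0% of all genes tested rose and 12.3% fell (median −0.11). Col15a1, a collagen that links basement membranes to the matrix around them, was at 2407, 5071, 1964, 6034 and 2497 in SPOP_CKI and 986, 761, 515, 586 and 582 in controls. The groups did not overlap, and the increase was 4.87-fold (adjusted p = 0.0012). Nid2, a nidogen that bridges laminin and collagen networks, fell 1.56-fold, from 469 ± 77.3 to 305 ± 80.5 (adjusted p = 0.0466), with some overlap. In the dystrophin and dystroglycan complex, the other laminin receptor of cardiomyocytes, 12 of 13 genes were tested, of which 3 fell and 1 rose (median 0.10, beside the same 10.0% higher and 12.3% lower of all genes tested). Sgca, a sarcoglycan, fell 2.34-fold (2006 ± 253 to 1002 ± 625, adjusted p = 0.0369). Dmd, encoding dystrophin, fell 1.53-fold (1985 ± 426 to 1300.3 ± 288, adjusted p = 0.0489). Sspn, encoding sarcospan, rose 1.51-fold (3142 ± 278 to 4884 ± 1297, adjusted p = 0.0434). Of 20 alternatives, Col15a1 passed in 20, Sgca in 10, Nid2 and Sspn in 9 and Dmd in 7. Without control library 1 or 4, none of these but Col15a1 passed.

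The integrin adhesion complex on the cytoplasmic side had 27 of 28 genes tested, of which 3 rose and 2 fell (median log2 difference 0.12), beside 10.0% and 12.3% of all genes tested. Lims2, a partner of integrin-linked kinase, fell 2.94-fold (1861 ± 187 to 721 ± 333, adjusted p = 0.0133). Tns2, a tensin that binds integrin beta tails, fell 2.43-fold (4342 ± 624 to 2047 ± 945, adjusted p = 0.0369). Actn1, the non-muscle alpha-actinin, rose 2.77-fold (429.7 ± 33.3 to 1320.5 ± 714, adjusted p = 0.00552), and Flna, the actin crosslinker filamin A, 1.74-fold (2378 ± 318 to 4369 ± 1725, adjusted p = 0.042). The fifth gene to change was Ptk2, encoding focal adhesion kinase, which rose 1.45-fold (705 ± 81.8 to 1022 ± 84.4, adjusted p = 0.0154) and is named after its values were seen. Ilk was too low to be tested, and 2106 of its 2744 exon bases in GENCODE M21 are shared with Taf10, so its count is uncertain. Lims2 and Actn1 passed in each of 20 alternatives, Ptk2 in 19, Tns2 in 12 and Flna in 11, the last 2 not without SPOP_CKI 4 or any 1 control library.

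Of 15 tested soluble and matrix ligands of integrins (18 in the table), 2 rose and 1 fell (median log2 difference 0.40), beside 10.0% and 12.3% of all genes tested. Thbs1 and Postn rose and Vtn fell. Postn, a matrix protein of activated fibroblasts, was 6.07-fold higher (adjusted p = 0.0474), which passed in 8 of 20 alternatives and not without SPOP_CKI 2, 3 or 4 or any 1 control library. Vtn, encoding the vitronectin bound by Itgav with Itgb3 or Itgb5, was at 293, 269, 378, 355 and 549 in SPOP_CKI and 886, 809, 719.9, 817 and 543 in controls. SPOP_CKI 5 lay just above the lowest control and the other 4 below it (2.08-fold lower, adjusted p = 0.00623). Thbs1, encoding thrombospondin, was at 2071, 7059, 1127, 4634 and 1404 in SPOP_CKI and 449.9, 210.3, 234, 134 and 540.2 in controls, and was highest in SPOP_CKI 2 and 4 (9.20-fold higher, adjusted p = 0.00277). Of 6 tested ligands on cell surfaces (8 in the table) 1 rose, with 10.0% as the share of all genes tested. Vcam1, the ligand of Itga4 and Itga9 on activated endothelium, was at 879, 3065, 948, 2030.0 and 949 in SPOP_CKI and 477, 456, 314, 384 and 542 in controls. Each SPOP_CKI library exceeded each control (3.21-fold, adjusted p = 0.00651). F11r, a junction protein, averaged 783 ± 215 and 1037 ± 40.0 and did not pass (adjusted p = 0.124). Vtn, Thbs1 and Vcam1 passed in each of 20 alternatives.

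The authors' deposited table lists 14 members as higher and 2 as lower at an adjusted p under 0.05, against 8.19% and 8.01% of the 24888 genes in the table. These shares count every gene, 221 of them without a p-value, unlike the shares for edgeR and DESeq2, which count tested genes only. On the recovered reads, edgeR's quasi-likelihood test called 11 members higher and 2 lower (11.8% and 10.4% of 14212 genes tested) and DESeq2 14 and 2 (12.5% and 12.2% of 16491 genes with an adjusted p). The 4 members that the deposited table adds to the 10 above are Itga11, Itga2, Itgax and Itgb2. The members Itga9, Itgav, Itga6, Lama4, Lamb3 and Itgb1bp2 passed the test in each of 20 alternatives. Across those alternatives the log2 difference of Itga9 lay between 1.38 and 1.83 and that of Itgb1bp2 between −1.71 and −1.12.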

How the data were processed

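Hearts of 10 mice, 5 per group, were compared. Samples were grouped by genotype and title in the labels. The submitters' processing notes name featureCounts 1.5.0-p3, DESeq2 1.20.0 and mm10. No aligner, annotation release or strand setting was given in the sources used here. Deposited per-library signal is reads divided by a size factor, and 100% of values came out as whole reads at a tolerance of 0.001. The authors deposited their own log2 fold change per gene as well, with its p-value before and after adjustment. Gene symbols, positions and lengths are those of the table.

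The test was limma 3.58.1 (R 4.3.3, eBayes with trend and robust variances) on log2(value + 1) with a genotype term alone, over 14212 genes with at least 10 scaled reads in at least 5 libraries, two-sided. On the recovered reads, edgeR 4.0.16 (quasi-likelihood) called 1683 genes higher and 1485 lower, and DESeq2 1.42.0 called 2064 and 2011, against 1421 and 1747 with limma. A fold is the log2 difference converted, and for low genes it can differ from the ratio of means. The added 1 tends to shrink it, whereas a library at 0 can enlarge it. An example is Itga2b, at 0 in SPOP_CKI 3 and 2.80-fold lower, with means of 19.0 in SPOP_CKI and 33.9 in controls. The script was tested on simulated data. Libraries of a group differed by more than sampling noise (chi-square per degree of freedom 13.8 or more). Litters and batches are not stated, so p-values measure the spread between libraries.

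The members, gene lists and ratios were chosen with earlier results of these data known. Values in every library are given for members that passed and, whether or not they passed, for Itga5, Itga6, Itga7, Itgav, Itgb1, Itgb5, Itgb2, Itgam, Lama2, Lama4, Lama5, Lamb1, Lamb2, Lamc1 and Itgb1bp2. Of each list, up to 4 called genes with the largest change are named, or, if fewer than 2 passed, the 2 of smallest p. Some genes that these rules take are counted but not reported here. Promoter windows and their orientation were checked against GENCODE M21 transcripts (27 of 29 windows). Alternatives were TMM scaling, quantile normalization, a pseudocount of 0.5, no filter, array weights, a replicate block, the count tools, leaving out each library, leaving out the 3 with Xist reads and, chosen after seeing the data, leaving out SPOP_CKI 2 and 4.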

Additional observations from a re-analysis of the deposited data

Results flagged for a closer look

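Of 74 groups of 5 libraries (37 members in each group), 5 had a library whose gap to the nearest other exceeded Dixon's critical share of the range, where chance gives about 1 in 20 groups. Itgb3 was 260.2 in SPOP_CKI 2 against 147 in the next library. Itgb1bp1 was 721 in SPOP_CKI 3 against 439, and Itgb3bp 149.8 in the same library against 77.5. Among controls, Itga4 was 134 in Cre_control 5 against 71.1, and Itgax was 3.22 in Cre_control 2 against 9.07.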

How the results depend on the processing

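The number of members that rose, 10 as reported, was 16 with array weights, 18 without the libraries with Xist reads, 5 without SPOP_CKI 2 and 4, 14 with DESeq2, 11 with edgeR, 7 with no filter, and 6 to 14 with 1 library left out. The number that fell, 2, was 3 with array weights and 2 to 4 with 1 library left out. Array weights gave 2429 higher and 2891 lower genes over all tested, and leaving out 1 library gave 889 to 1944 and 1063 to 2456. Without the libraries with Xist reads, the log2 ratios of Itga6 to Itga7, Lama4 to Lama2 and Lamb1 to Lamb2 differed by 1.10, 0.65 and 0.28 (exact permutation p = 0.057, 0.057 and 0.20), while Itga5 to Itga7 differed by 1.47 and passed (exact permutation p = 0.029). Fewer libraries allow fewer arrangements, so these p-values are coarser than those of the full set. For Lama4 to Lama2 each SPOP_CKI library left still exceeded each control left. With 1 library left out the ratio differences were 0.75 to 1.24 for Itga5 to Itga7, 0.97 to 1.47 for Itga6 to Itga7, 0.65 to 0.79 for Lama4 to Lama2 and 0.25 to 0.42 for Lamb1 to Lamb2. Among members given in every library that did not pass, the sign changed for Itgb2 (−0.21), Itga5 (−0.14) and Lama2 (−0.025) without SPOP_CKI 2 and 4, for Lamb1 (0.050 with array weights, 0.13 without the libraries with Xist reads, −0.15 to 0.078 with 1 library left out), for Itgb5 (0.054 with quantile normalization, 0.13 with array weights, 0.10 without the libraries with Xist reads, −0.12 to 0.046 with 1 library left out) and for Lama2 (−0.039 to 0.14 with 1 library left out). The sign of Itgal, Itgb7, Itga10, Itga3, Lama3, Itgb3bp, Itgax, Itga4, Itga8 and Itgb1bp1, which did not pass either, also turned in at least 1 alternative. For these changes the cause was not tested.

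With the replicate number as a block, 7 members rose and 2 fell, and Itgb1, Itgb3 and Itgb6 lost their calls. Over all genes tested, 1310 rose and 1636 fell with that block. Same-numbered libraries deviated together with correlations of 0.111, 0.104, 0.159, 0.0815 and 0.0265, and those of SPOP_CKI 1 to 5 correlated best with control libraries 1, 4, 3, 2 and 3, so the numbers were not taken to pair the mice. Itga2, Itga10, Itgax and Lamc3 averaged at most 49.4 scaled reads in a group, and what limits their precision was not tested.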
